A study of Homo sapiens with 6 samples.

Results

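Aminoacyl-tRNA synthetases were examined at the RNA level in Ishikawa cells, an established human endometrial adenocarcinoma line, in which TEFM, an elongation factor of mitochondrial transcription, was overexpressed. The members are 35 genes taken by symbol, or by an older form of the symbol, from a table of 61806 genes. Of these, 19 encode cytosolic enzymes or enzyme subunits and 16 encode mitochondrial enzymes. They were picked by name, without a cut on a measured value but with earlier results of these data known. The compared groups were 3 libraries of TEFM-overexpressing Ishikawa cells and 3 libraries of Ishikawa cells with the genotype EV, all from poly(A)-selected RNA of cells grown in DMEM with serum and with no treatment given. The sources used here do not say what EV abbreviates, how TEFM was introduced or whether the derivative is 1 clone. The submitters describe the replicates as independent biological ones, and the p-values measure the spread between these libraries only. If a group's libraries come from 1 derivation, variation between derivations is not covered.

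An aminoacyl-tRNA synthetase joins an amino acid to its own tRNA, and the charged tRNA then delivers that amino acid to the ribosome. Human cells keep 2 sets, encoded in the nucleus: one serves cytosolic ribosomes, the other is imported into mitochondria and serves the mitochondrial ribosomes that make respiratory chain subunits. GARS1 and KARS1 are exceptions, since each encodes both the cytosolic and the mitochondrial form of its enzyme. When amino acids run short, the transcription factor ATF4 is known to bind C/EBP-ATF response elements in many genes for amino acid synthesis, amino acid transport and cytosolic synthetases.

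The libraries held 14252668 to 17891047 counts. TEFM itself stood at 23.65, 22.72 and 23.98 FPKM (counts scaled to exonic length and to the library total) in the TEFM libraries and at 4.13, 4.24 and 4.55 FPKM in the EV libraries, a log2 fold change of 2.48, so the targeted gene follows the labels. Gene-level counts do not part an introduced copy from the cell's own gene. Of the 6 epithelial markers, 5 were higher in TEFM by the test described below, against 21.7% of all tested genes. Their summed levels were 686 to 715 FPKM in TEFM and 525 to 573 FPKM in EV. The markers of other cell types were low: none of 5 immune genes passed 0.42 FPKM in any library, none of 3 endothelial genes 0.36 FPKM and none of 6 stromal genes 1.77 FPKM, and CD3E, MS4A1 and DCN were at 0 throughout. In bulk RNA, fewer cells of a kind and less RNA per cell cannot be told apart, and this holds for each difference below.

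Most cytosolic synthetase genes passed the test in TEFM cells, in both directions, and most mitochondrial ones did not. Genes that averaged at least 1 FPKM were tested with edgeR's quasi-likelihood test and Benjamini-Hochberg adjustment over all 14254 of them at a threshold of 0.05. All 19 cytosolic members were tested: 13 fell, 4 rose and KARS1 and VARS1 did not pass. Among all tested genes, 43.4% passed in either direction, 21.7% lower and 21.7% higher, against 89.5% of the cytosolic members in either direction. The median standard error of the log2 fold change was 0.0434 over the cytosolic members, 0.0791 over the mitochondrial members tested and 0.0837 over all tested genes. Smaller changes could thus pass among the cytosolic members, and the part of this in their shares was not tested. Of the 15 mitochondrial members tested, WARS2 fell, NARS2 rose and 13 did not pass, so 13.3% passed. The median log2 fold change was -0.24 over the cytosolic members, -0.07 over the mitochondrial members tested and -0.00 over all tested genes. These counts describe lists that were picked by name with earlier results of these data known, and they are no test of either list.

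**Figure D1:**
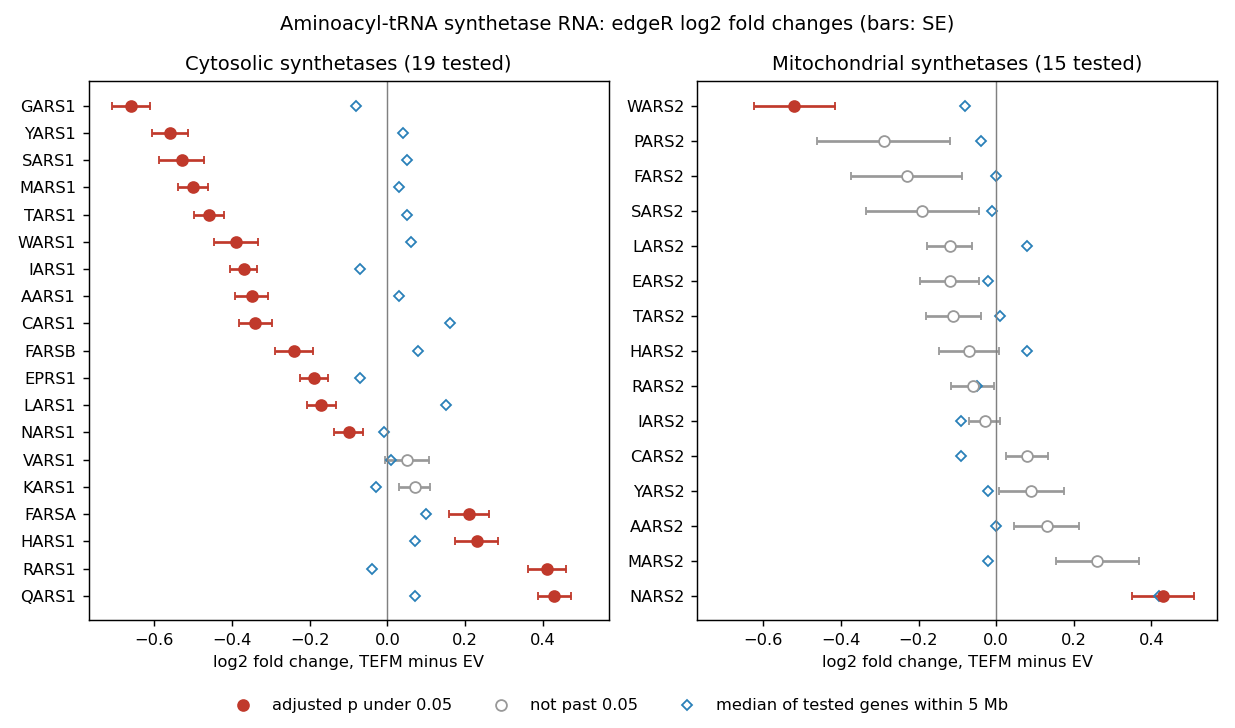
Log2 fold change (TEFM minus EV, x axis) of each tested synthetase, cytosolic on the left and mitochondrial on the right, with its standard error as a bar, filled where the adjusted p was under 0.05; diamonds give the median over tested genes within 5 Mb of the member. Filled points lie on both sides of 0 among the cytosolic genes, from GARS1 at -0.66 to QARS1 at 0.43, while WARS2 and NARS2 are the only filled points among the mitochondrial genes.

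RefSeq promoter windows (GRCh38.p14, 250 bases before to 50 after a start site) were at hand for 30 of the 35 members, 39 windows in all, with none for LARS1, VARS1, YARS1, AARS2 and VARS2. They were searched on both strands for TGATGNAA, the core of the C/EBP-ATF response element, for the longer TGATGNAAT, which contains it, and for TGACGTCA, the cAMP response element. The core was found in 7 of the 11 cytosolic members with a window that fell (AARS1, CARS1, GARS1, IARS1, MARS1, NARS1 and TARS1). It was found in none of the 4 cytosolic members that rose, not in KARS1, and in 1 of 14 mitochondrial members, YARS2. For comparison, 3.62% of all 35116 RefSeq windows held it, and 2.52% of the 9592 tested genes that have a window. The longer form was found in GARS1 and TARS1, and in 0.991% of all windows. TGACGTCA was in no member's window and in 1.85% of all windows. A match is a description of these letters and not a binding site. The 8 stretches are shown because they hold the only matches among the members; each is printed 5′ to 3′ in the direction of the gene, with 20 bases on either side of the match in capitals. The match reads TGATGNAA on the gene's own strand in NARS1 and YARS2. In the others it lies on the opposite strand, so the capitals show its reverse complement.
GARS1, chr7:30594825-30594872, plus strand: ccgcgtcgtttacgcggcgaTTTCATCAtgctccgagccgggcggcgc
MARS1, chr12:57488044-57488091, plus strand: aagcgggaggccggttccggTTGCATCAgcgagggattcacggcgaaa
TARS1, chr5:33440947-33440994, plus strand: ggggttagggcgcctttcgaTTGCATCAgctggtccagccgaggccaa
IARS1, chr9:92293683-92293730, minus strand: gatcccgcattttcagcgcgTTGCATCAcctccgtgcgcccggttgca
AARS1, chr16:70289666-70289713, minus strand: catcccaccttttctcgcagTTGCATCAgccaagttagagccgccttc
CARS1, chr11:3057398-3057445, minus strand: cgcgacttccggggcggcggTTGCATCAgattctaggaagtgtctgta
NARS1, chr18:57621795-57621842, minus strand: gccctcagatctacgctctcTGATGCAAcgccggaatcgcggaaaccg
YARS2, chr12:32756067-32756114, minus strand: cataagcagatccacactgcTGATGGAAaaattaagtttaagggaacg
GARS1, CARS1 and TARS1 have 2 windows each, and only 1 of the 2 holds the match. Counted from the start site of the window that holds it as base 1, with no base 0, the match began at -33 in GARS1, -13 in IARS1, -4 in MARS1, -2 in CARS1, 3 in TARS1 and 15 in NARS1. These 6 lay close to the start, whereas AARS1 at -187 and YARS2 at -197 held theirs farther upstream. Among the members that fell, SARS1, WARS1, FARSB, EPRS1 and the mitochondrial WARS2 had windows with no match.

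**Figure D2:**
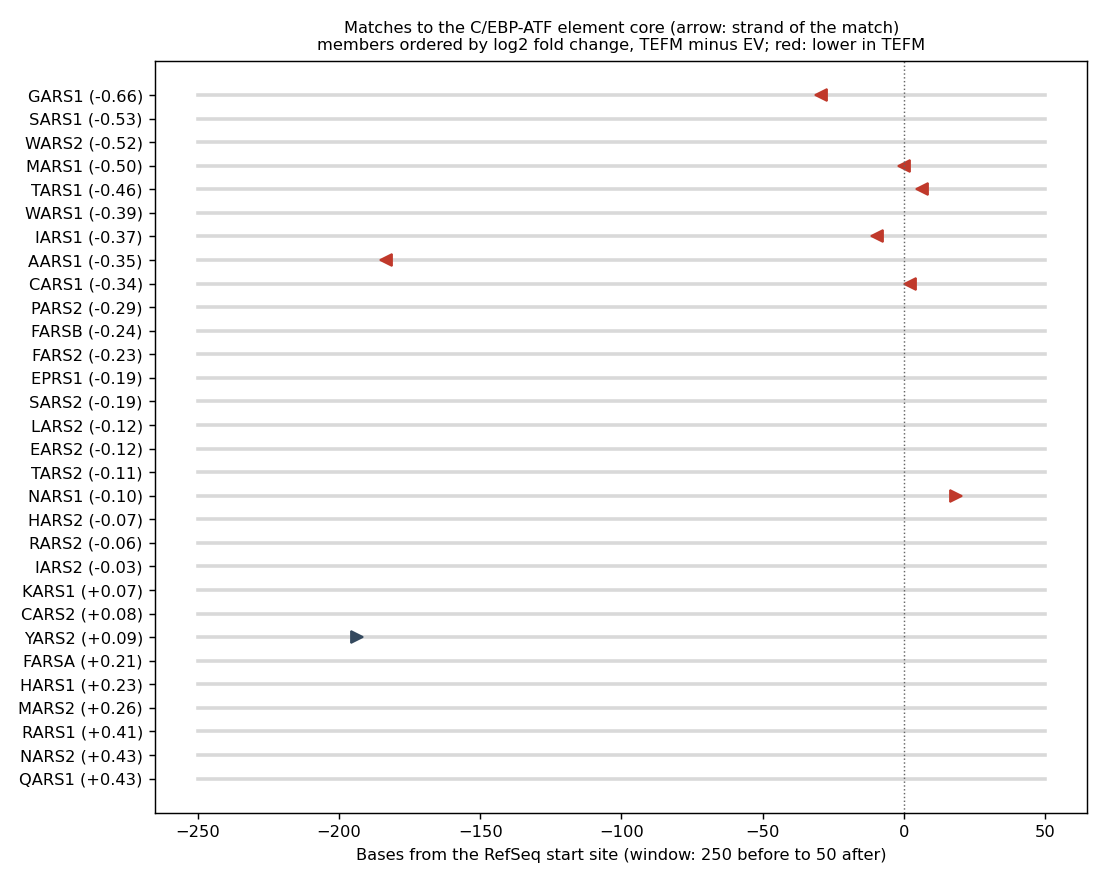
Position of each match to the C/EBP-ATF element core (x axis, bases from the RefSeq start site) in the promoter windows of the 30 members that have one, ordered by log2 fold change from lowest at the top, with arrows for the strand of the match and red for members lower in TEFM. Of the 8 matches, 7 are red, and the members at the bottom, QARS1, NARS2, RARS1, HARS1 and FARSA among them, show none.

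GARS1, which charges glycine in both compartments, had the largest fall of any member. Its levels were 13.23, 15.95 and 14.23 FPKM in the TEFM libraries and 23.36, 23.32 and 23.85 FPKM in the EV libraries. Every TEFM library lay below every EV library, and the EV values were nearly equal. The level fell by 36.7%, a log2 fold change of -0.66 ± 0.0486 (SE, edgeR adjusted p = 6.39e-11). The gene (ENSG00000106105, chr7:30580533-30634033, plus strand) shares 14754 bases of its span with the divergent transcript GARS1-DT on the opposite strand, which had a log2 fold change of -0.10 (adjusted p = 0.241). Of the 2 windows of GARS1, the 300-base window with the match is printed whole. Its match is the only one among the members beside that of TARS1 that has the longer form.
GARS1 window, chr7:30594628-30594927, plus strand: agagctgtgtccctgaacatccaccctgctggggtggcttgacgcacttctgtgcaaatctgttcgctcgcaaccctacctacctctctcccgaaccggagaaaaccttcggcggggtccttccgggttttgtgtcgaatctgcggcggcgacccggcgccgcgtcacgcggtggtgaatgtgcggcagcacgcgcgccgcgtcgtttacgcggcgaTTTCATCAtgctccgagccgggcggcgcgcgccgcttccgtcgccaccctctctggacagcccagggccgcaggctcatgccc

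KARS1, the lysine enzyme and the other gene that serves both compartments, did not pass the test. It stood at 51.73, 50.78 and 53.14 FPKM in the TEFM libraries and at 50.33, 49.66 and 51.9 FPKM in the EV libraries, and these values overlap. Its log2 fold change was 0.07, with a 95% interval from -0.01 to 0.16 (adjusted p = 0.135). A fall of the size seen in GARS1 lies outside that interval. KARS1 overlaps TERF2IP on the opposite strand over 871 bases. TERF2IP fell, with a log2 fold change of -0.19 (edgeR adjusted p = 0.00435), and its part in the KARS1 value was not tested.

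YARS1, the tyrosine enzyme, stood at 16.51, 18.19 and 17.07 FPKM in the TEFM libraries and at 27.14, 26.88 and 24.4 FPKM in the EV libraries. Its log2 fold change was -0.56 ± 0.0471 (SE, edgeR adjusted p = 7.4e-10). The groups lay well apart, by more than the range within either one. YARS1 overlaps S100PBP on the opposite strand over 1265 bases, and S100PBP fell too, with a log2 fold change of -0.44 (adjusted p = 7.36e-05). The sources used here do not say that counting used strand, and the part of shared reads in the YARS1 value was not tested.

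SARS1, the serine enzyme, stood at 35.51, 39.73 and 38.99 FPKM in the TEFM libraries and at 55.55, 62.75 and 50.85 FPKM in the EV libraries. The EV libraries were more spread than the TEFM libraries and still did not overlap with them. The log2 fold change was -0.53 ± 0.0578 (SE, edgeR adjusted p = 6.58e-08).

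MARS1, the methionine enzyme, stood at 39.23, 41.41 and 38.19 FPKM in the TEFM libraries and at 56.01, 59.39 and 57.55 FPKM in the EV libraries. All TEFM values were lower than all EV values, and the log2 fold change was -0.50 ± 0.0389 (SE, edgeR adjusted p = 1.71e-10). Over 982 bases MARS1 overlaps DDIT3, a stress-induced transcription factor gene on the opposite strand. DDIT3 fell as well, with a log2 fold change of -0.60, at a mean of 885 counts against 5572 counts for MARS1; its part in the MARS1 value was not tested.

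TARS1, the threonine enzyme, averaged 73.2 ± 2.51 FPKM in TEFM and 104 ± 3.11 FPKM in EV (SD, n = 3 each), a log2 fold change of -0.46. IARS1 (isoleucine), AARS1 (alanine) and CARS1 (cysteine) had log2 fold changes of -0.37, -0.35 and -0.34. LARS1, the leucine enzyme, also known as a leucine sensor upstream of mTORC1, had -0.17, and NARS1, the asparagine enzyme, -0.10. NARS1 was nearest to the threshold (adjusted p = 0.0413), and it lost its call under 8 alternatives. Among these were the fits without TEFM replicates 1, 2 or 3 (-0.09, -0.11 and -0.10) and without EV replicates 1 or 2 (-0.08 each). Around CARS1 and LARS1 the neighbouring genes moved the other way: the median over tested genes within 5 Mb was 0.16 and 0.15.

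WARS1, the tryptophan enzyme, is known as a gene induced by interferon gamma. It stood at 17.89, 18.12 and 19.3 FPKM in the TEFM libraries and at 24.59, 27.44 and 22.58 FPKM in the EV libraries, with every TEFM value lower. The log2 fold change was -0.39 ± 0.0558 (SE, edgeR adjusted p = 3.42e-06). Of 12 other interferon gamma response genes, 3 were expressed enough to be tested. Of those, CXCL10, a chemokine, rose by 1.05 on the log2 scale and GBP1, a guanylate-binding protein, fell by 1.17.

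The 4 cytosolic members that rose were QARS1, RARS1, HARS1 and FARSA. QARS1, the glutamine enzyme, stood at 44.61, 42.07 and 42.62 FPKM in the TEFM libraries and at 33.29, 31.11 and 34.15 FPKM in the EV libraries. All TEFM values were higher than all EV values, and the gap between the groups was wider than the range within either. The log2 fold change was 0.43 ± 0.0434 (SE, edgeR adjusted p = 1.56e-08). QARS1 lies on chr3:49095932-49105130, minus strand, and tested genes within 5 Mb had a median log2 fold change of 0.07. Its only promoter window is shown for contrast with the printed window of GARS1. The QARS1 window holds none of the 3 motifs and so has no capitals.
QARS1 window, chr3:49104708-49105007, minus strand: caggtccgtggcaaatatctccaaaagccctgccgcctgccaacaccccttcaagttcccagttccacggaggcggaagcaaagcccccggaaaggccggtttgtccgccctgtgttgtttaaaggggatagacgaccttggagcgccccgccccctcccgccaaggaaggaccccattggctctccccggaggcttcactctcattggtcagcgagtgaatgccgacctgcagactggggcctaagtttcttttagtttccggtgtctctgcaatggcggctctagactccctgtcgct

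RARS1, the arginine enzyme, stood at 34.12, 35.68 and 37.45 FPKM in the TEFM libraries and at 26.76, 27.63 and 28.79 FPKM in the EV libraries, again with no overlap. Its log2 fold change was 0.41 ± 0.0492 (SE, edgeR adjusted p = 3.01e-07). The genes around it had a median of -0.04. VARS1, the valine enzyme, had 0.05 (adjusted p = 0.535), and its value rested on single libraries: it was -0.01 without TEFM replicate 1 and 0.13 (adjusted p = 0.0297) without EV replicate 3.

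**Figure D3:**
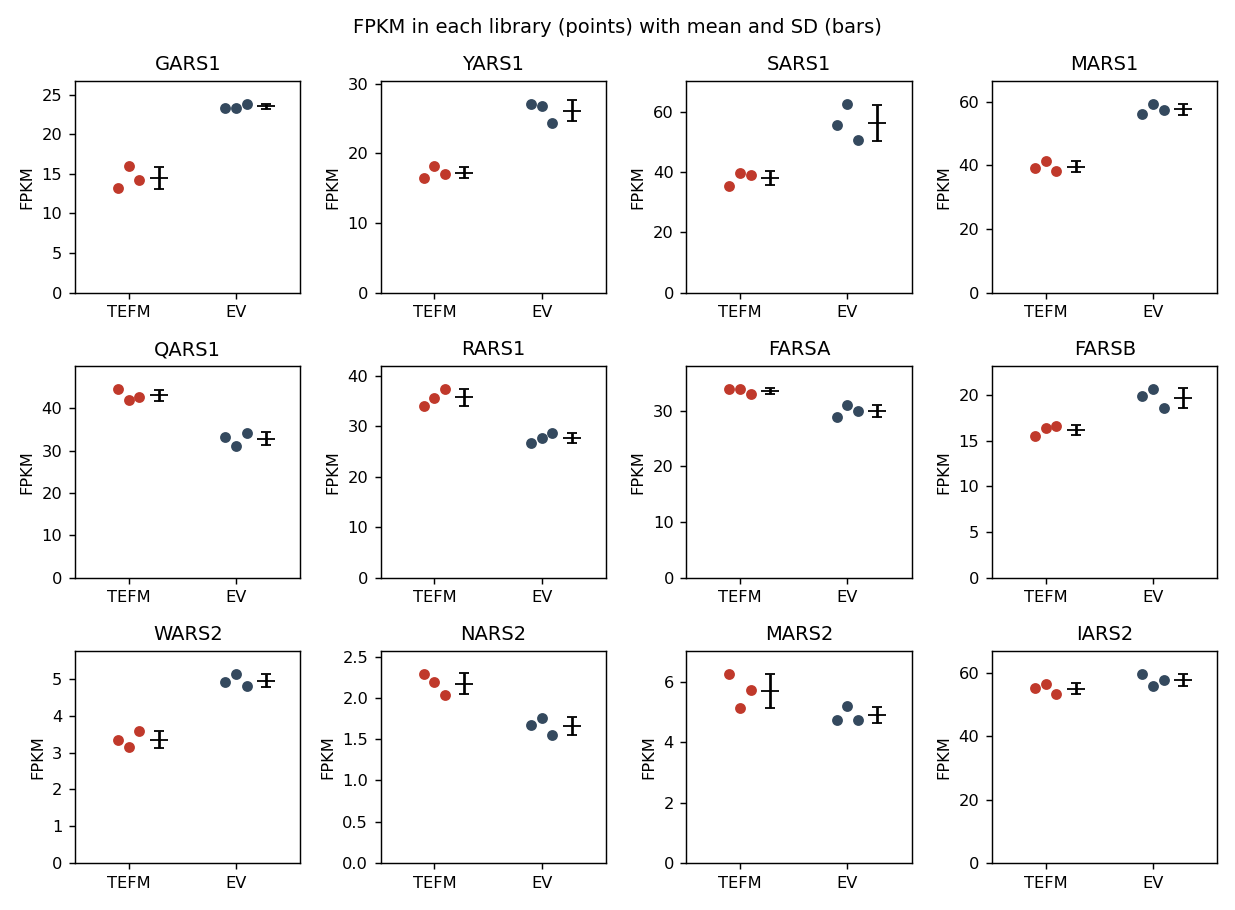
FPKM of 12 members in each library (points, y axes from 0), TEFM left of EV, with the mean and SD of each group of 3 libraries beside the points. The groups are apart for the first 10 members shown, in both directions, and overlap for MARS2 and IARS2.

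Phenylalanine is charged in the cytosol by an enzyme built of equal numbers of a catalytic alpha subunit, FARSA, and a beta subunit, FARSB, and the RNAs of these subunits moved in opposite directions. FARSA stood at 33.92, 33.83 and 32.98 FPKM in the TEFM libraries and at 28.84, 30.95 and 29.97 FPKM in the EV libraries, a log2 fold change of 0.21 (adjusted p = 0.00199). FARSB stood at 15.54, 16.37 and 16.61 FPKM in the TEFM libraries and at 19.87, 20.66 and 18.54 FPKM in the EV libraries, a log2 fold change of -0.24 (adjusted p = 0.000258). Neither gene's groups overlapped. The log2 ratio of FARSA to FARSB was 1.13, 1.05 and 0.99 in the TEFM libraries and 0.54, 0.58 and 0.69 in the EV libraries. The ratio was thus higher in all 3 TEFM libraries, by 0.45 on the log2 scale (exact two-sided permutation test, p = 0.1, the smallest that 3 against 3 libraries can give). Exonic length, by which FPKM divides, was 2434 bases for FARSA and 6761 for FARSB. By counts, FARSB was the higher in every library, so the sign of this ratio depends on length, while its difference between the groups does not. FARSB is shown per library as the partner of FARSA and was picked after its value was seen.

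HARS1, the cytosolic histidine enzyme, and HARS2, its mitochondrial counterpart, are neighbours on chromosome 5 that are read in opposite directions. HARS1 stood at 6.89, 6.22 and 6.73 FPKM in the TEFM libraries and at 5.92, 5.4 and 6.01 FPKM in the EV libraries. The gap between the lowest TEFM and the highest EV value was small, and the log2 fold change was 0.23 ± 0.0551 (SE, edgeR adjusted p = 0.00132). With limma on log2(FPKM + 1) the HARS1 call was lost (adjusted p = 0.0603). HARS2 had a log2 fold change of -0.07, with an interval from -0.23 to 0.09 (adjusted p = 0.509). Their RefSeq start sites lie 85 bases apart, and the stretch from the start of HARS1 to that of HARS2 is printed because it belongs to the promoter windows of both.
HARS1 to HARS2, chr5:140691370-140691455, plus strand: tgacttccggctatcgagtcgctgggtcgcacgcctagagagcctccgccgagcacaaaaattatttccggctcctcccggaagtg
In the deposited coordinates the genes overlap by 108 bases. HARS1 also overlaps WDR55 on the opposite strand over 1090 bases, at a mean of 1428 counts against 896 counts for WDR55. HARS2 overlaps ZMAT2 on the same strand over 626 bases, at a mean of 534 counts against 1480 counts for ZMAT2. The part of shared reads in the HARS1 and HARS2 values was not tested.

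Cytosolic members can also be read by where their proteins sit. A large multi-synthetase complex holds EPRS1, IARS1, LARS1, MARS1, QARS1, RARS1 and KARS1 of the members, on a scaffold of AIMP1, AIMP2 and EEF1E1. Of these 7 members, 4 fell, 2 rose and KARS1 did not pass, so 85.7% passed. Of the 12 outside it, 9 fell, 2 rose and VARS1 did not pass, so 91.7% passed, against 43.4% of all tested genes; the difference between these shares was not tested. EPRS1, which charges both glutamate and proline, had the highest mean FPKM of any member. It stood at 82.64, 85.51 and 84.48 FPKM in the TEFM libraries and at 95.13, 100.71 and 100.32 FPKM in the EV libraries. The groups did not overlap, and EPRS1 had a log2 fold change of -0.19 ± 0.036 (SE, edgeR adjusted p = 0.000139). Among the scaffold genes, AIMP2 fell by 0.25 on the log2 scale (adjusted p = 0.0019), while EEF1E1 had 0.13 (adjusted p = 0.143) and AIMP1 0.00 (adjusted p = 0.991). RNA levels of the complex's parts thus lay between -0.50 for MARS1 and 0.43 for QARS1.

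Across the cytosolic set the lower RNA outweighed the higher. The 19 genes summed to 649, 668 and 658 FPKM in the TEFM libraries and to 764, 792 and 763 FPKM in the EV libraries, with no overlap. They took 0.422% ± 0.00755 of all counts in TEFM and 0.519% ± 0.00866 in EV (SD, n = 3 each). The FPKM of the groups did not overlap for 17 of the 19, against 51.6% of all tested genes. In size, 11 of the 19 log2 fold changes were 0.3 or more, against 35.6% of those of all tested genes. The 16 mitochondrial genes summed to 135, 129 and 132 FPKM in the TEFM libraries and to 139, 137 and 140 FPKM in the EV libraries, a small gap in the same direction. IARS2, with a mean of 56.4 FPKM, was the largest part of this sum. Summed FPKM carries no composition scaling. Without that scaling the mitochondrial median log2 fold change was -0.11 instead of -0.07, and its part in the gap was not tested.

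Most mitochondrial synthetase genes were expressed at a lower level than cytosolic ones, and their values were less precise. Of the 16, 15 had a mean under 20 FPKM, against 5 of the 19 cytosolic members. Standard errors of the log2 fold change ran from 0.0407 to 0.171 over the mitochondrial members tested and from 0.0347 to 0.0578 over the cytosolic members. IARS2, the isoleucine enzyme, was the exception in level: it stood at 55.21, 56.66 and 53.28 FPKM in the TEFM libraries and at 59.75, 55.79 and 57.92 FPKM in the EV libraries, which overlap. Its log2 fold change was -0.03, with an interval from -0.12 to 0.05, so a change of the size seen in IARS1 lies outside it. VARS2, the valine enzyme, was the only member under the filter, at 0.44, 0.29 and 0.35 FPKM in the TEFM libraries and at 0.47, 0.36 and 0.55 FPKM in the EV libraries.

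**Figure D4:**
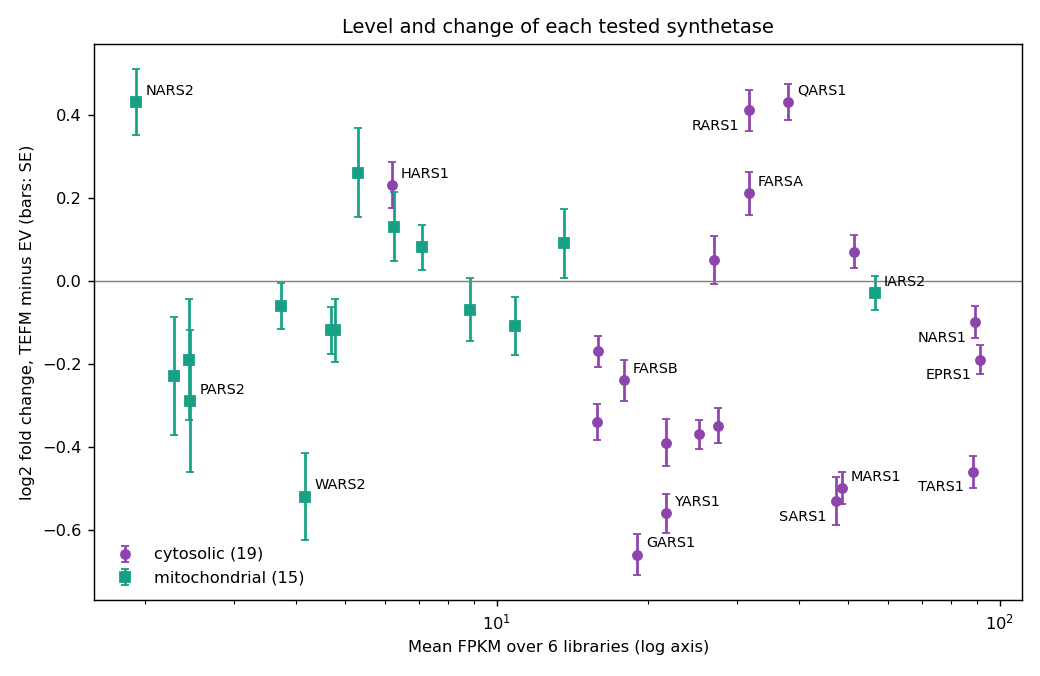
Log2 fold change (TEFM minus EV, y axis, with standard errors) of the 34 tested members against their mean FPKM over the 6 libraries (x axis, log scale), cytosolic members as circles and mitochondrial members as squares. Mitochondrial members lie to the left with longer error bars, apart from IARS2 at 56.4 FPKM, and cytosolic members spread to both sides of 0 at levels above 15 FPKM, apart from HARS1 at 6.19 FPKM.

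WARS2, the mitochondrial tryptophan enzyme, was the 1 mitochondrial member that fell. It stood at 3.34, 3.14 and 3.59 FPKM in the TEFM libraries and at 4.92, 5.14 and 4.8 FPKM in the EV libraries, with no overlap. Its log2 fold change was -0.52 ± 0.104 (SE, edgeR adjusted p = 0.000227). The gene (chr1:119031216-119140654, minus strand) overlaps WARS2-AS1 on the opposite strand by 264 bases. WARS2-AS1 had more counts than WARS2 (a mean of 367 against 258.7) and fell too, with a log2 fold change of -0.56 (adjusted p = 3.68e-05). Without a stated strand, reads of this pair cannot be told apart where they overlap.

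NARS2, the mitochondrial asparagine enzyme, was the 1 mitochondrial member that rose. It stood at 2.29, 2.19 and 2.04 FPKM in the TEFM libraries and at 1.67, 1.76 and 1.55 FPKM in the EV libraries, again with no overlap. The log2 fold change was 0.43 ± 0.0791 (SE, edgeR adjusted p = 8.91e-05). NARS2 lies on the long arm of chromosome 11 (chr11:78435620-78575194, minus strand), and the 73 other tested genes within 5 Mb had a median log2 fold change of 0.42. The NARS2 value thus equals that of its surroundings to within its standard error, and the part of the neighbourhood in it was not tested.

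Of the 13 mitochondrial members that did not pass, MARS2, the methionine enzyme, had the smallest p. It stood at 6.26, 5.12 and 5.73 FPKM in the TEFM libraries and at 4.73, 5.19 and 4.75 FPKM in the EV libraries, where TEFM replicate 2 lay inside the EV range. Its log2 fold change was 0.26, with an interval from 0.04 to 0.48 (adjusted p = 0.0517), and it passed without TEFM replicate 2 (0.33, adjusted p = 0.0272). LARS2 (leucine) followed with -0.12 (adjusted p = 0.0859). AARS2 (alanine) had 0.13, YARS2 (tyrosine) 0.09 and CARS2 (cysteine) 0.08. RARS2 (arginine) had -0.06, TARS2 (threonine) -0.11 and EARS2 (glutamate) -0.12. Single libraries moved these small values: with each left out in turn, AARS2 ranged from 0.06 to 0.19, YARS2 from 0.03 to 0.14, CARS2 from 0.04 to 0.10, TARS2 from -0.17 to -0.07, RARS2 from -0.10 to -0.05 and HARS2 from -0.12 to -0.02. The widest intervals were those of PARS2 (proline), from -0.64 to 0.07, FARS2 (phenylalanine), from -0.52 to 0.07, and SARS2 (serine), from -0.48 to 0.11. Each of these intervals includes the -0.46 of TARS1, so a fall of that size lies within the error at this depth.

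Some mitochondrial values carry a limit of annotation. The spans of MARS2, SARS2 and VARS2 are covered to at least 99% by a second, unnamed gene on the same strand of the deposited table, so reads may be split or dropped there. EEF1G, an elongation factor subunit that every cell uses and whose span is also covered in full, was listed at 0.113 FPKM on average. The span of YARS2 overlaps that of DNM1L on the opposite strand over 18161 bases. EARS2 overlaps GGA2 on the same strand over 1242 bases, at a mean of 543.2 counts against 1480 counts for GGA2. Levels of MARS2, SARS2, VARS2, YARS2 and EARS2 are therefore uncertain. The part of these overlaps in the difference between groups was not tested.

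Cytosolic and mitochondrial enzymes for the same amino acid were set against each other as a log2 ratio of FPKM within each library, which no library scaling can change. Of 17 such pairs, the ratio was lower in every TEFM library than in every EV library for 8, higher in every one for 3, and overlapping for 6. For comparison, the FPKM of the groups did not overlap for 51.6% of all tested genes taken singly. The share over other gene pairs was not computed. EPRS1 and FARS2 recur among the pairs, so the pairs are not independent, and their count is no test of a shift. No pair could pass a threshold of 0.05, since the smallest exact two-sided permutation p is 0.1 and 0.155 after adjustment over the 17 pairs. The methionine pair differed most: the log2 ratio of MARS1 to MARS2 was 2.65, 3.02 and 2.74 in the TEFM libraries and 3.57, 3.52 and 3.60 in the EV libraries, a difference of -0.76. For tyrosine the log2 ratio of YARS1 to YARS2 was 0.17, 0.51 and 0.27 in the TEFM libraries and 1.14, 0.99 and 0.76 in the EV libraries, again with no overlap. For asparagine the difference was -0.53, to which the higher NARS2 contributed more than the lower NARS1.

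The other lower ratios were those of alanine (-0.48), cysteine (-0.42), threonine (-0.35), serine (-0.34) and isoleucine (-0.34). The serine value moved most with single libraries and was -0.22 without EV replicate 2. Isoleucine and histidine were the pairs with a lower FPKM for the cytosolic than for the mitochondrial gene in every library. FPKM divides by exonic length, which was 22418 bases for IARS1 against 4135 for IARS2, and 14155 for HARS1 against 3719 for HARS2. By counts, the cytosolic gene was the higher of each pair in every library. The sign of a ratio thus depends on these lengths, while its difference between the groups does not. The log2 ratio of IARS1 to IARS2 was -1.35, -1.36 and -1.32 in the TEFM libraries and -1.04, -0.94 and -1.02 in the EV libraries, with no overlap. Histidine went the other way, with a log2 ratio of HARS1 to HARS2 of -0.36 ± 0.0591 in TEFM and -0.67 ± 0.13 in EV (SD, n = 3 each). The arginine ratio was higher by 0.47, and the tryptophan ratio by only 0.13, since WARS1 and WARS2 both fell. For glutamate, proline, leucine, valine and both phenylalanine subunits the libraries overlapped.

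**Figure D5:**
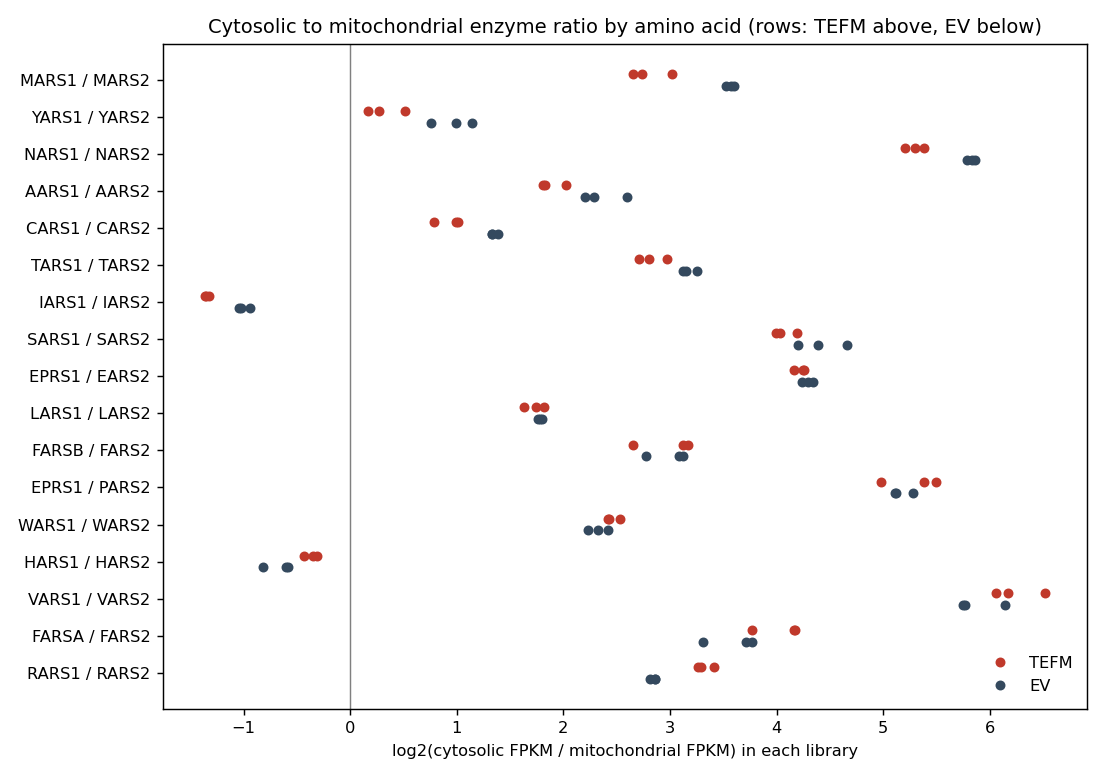
Log2 ratio of cytosolic to mitochondrial FPKM (x axis) in each library for 17 enzyme pairs, with the 3 TEFM libraries drawn above the 3 EV libraries of each pair. Pairs are ordered by the difference, from methionine (-0.76) at the top, where TEFM lies to the left, to arginine (0.47) at the bottom, where TEFM lies to the right.

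The mitochondrial set has no enzyme for glutamine. In mitochondria glutamate is loaded onto the glutamine tRNA and then converted by the GatCAB amidotransferase, made of QRSL1, GATB and GATC. With MTFMT, which formylates the initiator methionine tRNA, these made a list of 4 genes, of which GATC rose by 0.19 on the log2 scale (adjusted p = 0.0102) and the others did not pass. Without TEFM replicate 3 or EV replicate 2, GATC did not pass (0.16 and 0.15). Nor did it pass with limma on log2(FPKM + 1) or log2(FPKM + 0.1) (0.14 and 0.15). The others lay between -0.09 for QRSL1 and 0.04 for MTFMT. QARS1, which serves the cytosol, had 0.43 and EARS2 -0.12.

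Of 6 proofreading enzymes and synthetase relatives, 3 fell and none rose, a share near the 43.4% of all tested genes that passed. SEPSECS, which makes selenocysteine on its tRNA, fell by 0.78 on the log2 scale (adjusted p = 5.8e-07), and PSTK, the kinase for the step before it, fell by 0.45 (adjusted p = 0.0153). DTD1, which removes D-amino acids from tRNAs, fell by 0.23 (adjusted p = 0.0141). Calls depended on single libraries for PSTK, which did not pass without TEFM replicate 1 (-0.38), and for DTD1, which did not pass without TEFM replicate 3 (-0.21) or EV replicate 2 (-0.20). PSTK also did not pass with limma on log2(FPKM + 1) or log2(FPKM + 0.1) (-0.28 and -0.46). TARS3, a second cytosolic threonine enzyme, had 0.22 (adjusted p = 0.0666), against -0.46 for TARS1. Of 5 tested genes on a list of cytosolic elongation factors and their subunits, only EIF5A passed, higher by 0.12. It did not pass without TEFM replicate 1 (0.07), EV replicate 1 (0.11) or EV replicate 2 (0.11), nor without composition scaling (0.08, adjusted p = 0.123) or with limma on log2(FPKM + 1) (0.08, adjusted p = 0.263) or log2(FPKM + 0.1) (0.08, adjusted p = 0.262).

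In the ATF4 list of 24 genes, all tested, 22 fell and none rose, against 21.7% of all tested genes that fell, with a median log2 fold change of -0.84 against -0.24 over the cytosolic synthetases. PSAT1, of serine synthesis, fell by 1.15 on the log2 scale, TRIB3, a pseudokinase, by 1.87, MTHFD2, of mitochondrial folate metabolism, by 0.83, and CHAC1, which degrades glutathione, by 1.70. ATF4 RNA itself had -0.08 (adjusted p = 0.103), and -0.12 without EV replicate 2 (adjusted p = 0.0238). The fall of this list was known from the same libraries beforehand, so it is no independent evidence on the synthetases. Of 8 genes for the eIF2 alpha kinases, their regulators and the matching phosphatase, EIF2AK1 rose by 0.17 and GCN1 by 0.14, the second not with limma on log2(FPKM + 1) (adjusted p = 0.102). IMPACT, which binds GCN1 and restrains the kinase EIF2AK4, fell by 0.41 and PPP1R15A, the inducible phosphatase subunit, by 0.27. EIF2AK4, which senses uncharged tRNA, had 0.01 (adjusted p = 0.83). The 4 of 8 that passed are again a share near the 43.4% of all tested genes, and the shares of the scaffold (1 of 3), amidotransferase (1 of 4) and elongation factor (1 of 5) lists lay below it.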

How the data were processed

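RNA-seq of 3 TEFM-overexpressing and 3 EV libraries of Ishikawa cells was used. Per the labels' protocols, poly(A) RNA was isolated with oligo(dT) beads, fragmented, primed at random and amplified by PCR. The deposited table holds raw whole-number read counts per gene and exonic length in bases for each gene, per the file headers. The deposited FPKM values were made by the authors from those counts, the exonic length and the column total, and 100% of them could be recomputed within 0.006. Per the submitters' processing notes, cutadapt 1.9.1 was used for the reads and hg19 as the build. The coordinates nevertheless match GRCh38: of 58254 gene IDs shared with an Ensembl-based GRCh38 annotation (GENCODE v29), 99.98% overlap, including all 35 members. The aligner, the counter, its strand setting and its handling of multiply mapped reads were not stated in these sources or in the headers. The table holds 14 pseudogenes of members, none with a mean above 1.0 count over the libraries.

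Counts were tested in edgeR 4.0.16 (R 4.3.3) with its quasi-likelihood F test, two-sided, with TMM scaling (factors 0.982 to 1.02), no covariate, a filter of mean FPKM at least 1 and Benjamini-Hochberg adjustment over 14254 genes; the threshold was 0.05. Standard errors and 95% intervals derive from the F statistic. The common biological coefficient of variation was 4.81%, and chi-square divided by its degrees of freedom ran from 2.17 to 4.78 between libraries of a group and from 26.1 to 34.2 between groups. Log2 ratios of FPKM were compared by exact permutation over the 6 libraries (scipy 1.17.1). The procedure was checked on counts simulated at a common dispersion for all genes. It recovered 31 of 50 changes of 1.2-fold and 46 of 50 of 2.0-fold, with 6 false calls among 170 calls. Dispersion can differ between genes in the data, so these rates need not hold for the members.

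Members, gene lists, motifs and naming rule were chosen with earlier results of these data known. Values per library are given for called members whose log2 fold change was 0.5 or more in size, called members opposite in direction to most of their class, GARS1, KARS1, EPRS1, QARS1, WARS1 and 1 further mitochondrial member with the smallest p. FARSB, IARS2 and VARS2 are given per library outside this rule, as are the ratios. Up to 4 genes with the smallest p are named from each further list; others are given by value and were chosen after their values were seen. Promoter sequences come from RefSeq (GRCh38.p14); for 37 of 39 windows the end was found in an annotated transcript. Alternatives were other scalings, filters, DESeq2 1.42.0, limma 3.58.1 on log2(FPKM + 1) and log2(FPKM + 0.1), a block for the replicate number, and fits that omit 1 library.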

Additional observations from a re-analysis of the deposited data

How the results depend on the processing

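The 19 called members kept direction and call in 273 of 283 combinations with an alternative, and none changed sign. The 10 lost calls were 8 of NARS1 (log2 fold change -0.11 to -0.08) and 2 of HARS1, with limma on log2(FPKM + 1) and log2(FPKM + 0.1) (0.17 and 0.19, adjusted p 0.0603 and 0.0589). Of the members that did not pass, VARS1 was -0.01 without TEFM replicate 1 and 0.13 without EV replicate 3, LARS2 passed without composition scaling (-0.16), and MARS2 passed with upper-quartile scaling (0.27) and without TEFM replicate 2 (0.33). The mitochondrial counts therefore became 2 higher with upper-quartile scaling and 2 lower without composition scaling. At a mean FPKM of at least 5, where only 7 mitochondrial members were tested, 0 were higher and 0 lower, and their median log2 fold change was 0.07. Only 7743 genes were tested in that setting, and 2046 of them were higher, against 3092 of 14254 in the main fit. The mitochondrial median was -0.11 without composition scaling, -0.10 with limma on log2(FPKM + 1) and -0.11 on log2(FPKM + 0.1). Leaving out 1 library at a time, it ranged from -0.12 to -0.07, the cytosolic median from -0.29 to -0.21, and the mitochondrial count from 1 to 2 higher. Scaling moved the split of all calls to 2576 higher and 3679 lower without composition scaling. With limma on log2(FPKM + 1) it was 2186 and 3105. A pseudocount of 1 in the ratios gave -0.39 for asparagine, 0.11 for valine and 0.04 for tryptophan. The cause of these shifts was not tested.

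Replicate numbers did not pair the libraries: deviations from the group means correlated at -0.034, 0.028 and -0.023 between equal numbers, and libraries did not each correlate best with their own number. With the replicate block, 2986 genes were higher and 2949 lower, and NARS1 lost its call among the members (adjusted p = 0.0604). Depth limits the mitochondrial members most, the lowest of them, VARS2, having a mean of 43.17 counts.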

Other observations

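Mitochondrial tRNAs are cut and modified before mitochondrial synthetases can charge them. Of 18 genes for these steps, all tested, 3 rose, 4 fell and 11 did not pass in TEFM. The 38.9% that passed are near the 43.4% of all tested genes, and the median log2 fold change was 0.03. TRMT10C, a subunit of mitochondrial RNase P and a tRNA methyltransferase, averaged 37.2 ± 1.83 FPKM in TEFM and 29.7 ± 0.781 FPKM in EV (SD, n = 3 each), a log2 fold change of 0.36 (edgeR adjusted p = 1.72e-05). ELAC2, which cuts the 3′ ends of tRNAs, rose by 0.23 and TRMU, which thiolates the wobble uridine, by 0.24. TRMU lost its call without TEFM replicate 1 (0.17), and with limma on log2(FPKM + 1) or log2(FPKM + 0.1) (0.17 and 0.20). OSGEPL1, which modifies the base next to the anticodon, fell by 0.36.

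Of 12 mitochondrial translation factors, 3 fell and 9 did not pass, and the median log2 fold change was -0.08. The 25.0% that passed compare with 43.4% of all tested genes, of which 21.7% fell. GFM1, an elongation factor, averaged 6.87 ± 0.336 FPKM in TEFM and 8.32 ± 0.257 FPKM in EV (SD, n = 3 each), a log2 fold change of -0.24 (edgeR adjusted p = 0.000591). GUF1 (-0.12) and MRPL58 (-0.18) were close to the threshold, and lost their calls under 9 and 7 alternatives. For GUF1 these included each library left out but EV replicate 3 (-0.13 to -0.10). For MRPL58 they included the fits without TEFM replicates 2 or 3 (-0.14 and -0.19) and EV replicates 1 or 3 (-0.19 and -0.15). TUFM, the factor that brings charged tRNAs to the mitochondrial ribosome, had 0.10 (adjusted p = 0.0567).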
